A study of Mus musculus with 44 samples.

Results

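Testes of adult mice labelled SCRbKO, read here as a knockout of Rb1 in Sertoli cells, were set directly against testes of juvenile wild-type mice. Both were measured on a panel of short amplicons (called targets), 1 for each of 102 genes and 2 for E2f3. The members were set by genotype and age, out of 44 libraries in the series, with every target of the panel. They were 4 libraries of genotype SCRbKO at 2.5 months (RbKO) and 5 of genotype WT at 10 days (P10_WT). These members and the gene lists below were chosen with earlier results of these data known. The 4 RbKO mice were cre+, with E2F3 wt/wt and Rb lox/lox alleles, on a strain given as mix:B6, C57BL/6, FVB. The P10_WT mice were C57BL/6, and their titles name no lox allele and no cre. The 5 adult controls (2.5mo_WT), given beside the comparison for the adult level, had the same mixed strain and age as RbKO, carried floxed alleles themselves (Rb lox/lox in 4 and lox/wt in 1; E2F3 lox/wt in 3, wt/wt in 1 and lox/lox in 1) and were cre- in 4 titles, while the title of replicate 5 states no cre status. The promoter that drives cre is not named in the labels. Age, genotype and strain differ together between RbKO and P10_WT and cannot be told apart. All libraries are whole testis, so fewer cells of a type and less RNA per cell cannot be told apart either. The question is how far a mutant testis, described for this comparison as poor in germ cells, resembles or differs from a juvenile one.

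Rb1 encodes the retinoblastoma protein, which binds E2F transcription factors and keeps genes of DNA replication silent until a cell commits to divide. Sertoli cells line the seminiferous tubules and nurse the germ cells. They divide in the fetus and newborn and leave the cell cycle before puberty, when they stop making anti-Müllerian hormone and close the blood-testis barrier. In the mouse at 10 days the tubules hold spermatogonia and the first cells that enter meiosis, adult Leydig cells are only starting to form between the tubules, and no spermatids are present. An adult tubule holds every stage up to sperm.

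Total counts ran from 170708 to 213264 in RbKO, from 36679 to 164661 in P10_WT and from 205862 to 252993 in 2.5mo_WT. The shallowest library, P10_WT replicate 4, and RbKO replicate 3 had 21.2% and 23.1% of targets at 0. One gene filled much of the panel in RbKO: Cyp17a1 took between 24.9% (95% exact Clopper-Pearson interval 24.7 to 25) and 39.6% (39.4 to 39.8) of an RbKO library's reads. It took between 0.23% (0.203 to 0.259) and 2.05% (1.91 to 2.2) of a P10_WT library's reads, and between 4.27% (4.19 to 4.35) and 11% (10.9 to 11.1) of a 2.5mo_WT library's. Reads are shared out over a small panel, so a large share for Cyp17a1 lowers the share of every other target, and how the libraries are scaled sets where 0 lies. Levels below are counts scaled to a common panel total (CPM) on the TMM scale of all 14 libraries, which corrects for such a shift where most targets do not move, so the CPM of a library need not add up to its panel total. Log2 fold changes of RbKO minus P10_WT come from the fit of these 9 libraries, and those against 2.5mo_WT from the fit of all 14.

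Of 97 targets with a mean count of at least 10, 13 (13.4%) were called higher and 6 (6.19%) lower in RbKO than in P10_WT at a Benjamini-Hochberg adjusted p under 0.05 (edgeR quasi-likelihood test), and 28 had an unadjusted p under 0.05. The called targets were Cyp17a1, Hsd3b6, Star, Aplp1, Piwil1, Mif4gd, Usp1, Prcp, Kit, Atf4, Spo11, Scd2 and Ppia, which were higher, and Amh, Col1a1, Thra, Stra8, Sox9 and Mcm5, which were lower. The libraries did not overlap at 10 targets with RbKO above (10.3%) and at 8 with RbKO below (8.25%). The balance of higher and lower calls followed the scaling. DESeq2's size factors gave 14 higher and 7 lower, and the adult Sertoli cell targets as the scale gave 11 and 3. The reference genes as the scale gave 7 and 13, and the total count alone 5 and 24. Dividing by the total without Cyp17a1, a setting chosen after seeing the data, gave 8 and 10. The median log2 fold change over all tested targets was -0.13 with TMM, -0.93 with the total alone, -0.6 with the reference genes and -0.36 with the total without Cyp17a1. Each of the 19 called targets kept its sign under all 6 scalings, though Ppia stood at only 0.06 with the total alone. Ppia is also 1 of the 3 reference genes and Sox9 1 of the 7 adult Sertoli cell targets, so each enters 1 of these scales itself. Cyp17a1, Hsd3b6, Aplp1, Star, Prcp and Stra8 kept their call under all 24 other settings tried. Of the 9 fits that left out a library, the smallest counts came without P10_WT replicate 3 (6 higher, 3 lower), RbKO replicate 1 (7 and 3), P10_WT replicate 5 (7 and 4) and RbKO replicate 2 (8 and 4).

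**Figure D1:**
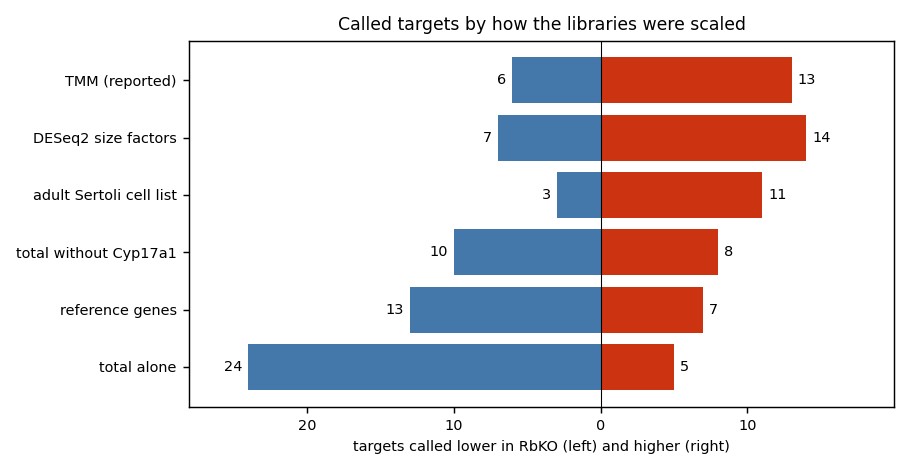
Number of targets called lower (blue, left) and higher (red, right) in RbKO than in P10_WT at adjusted p under 0.05, by the way the libraries were scaled. The split moves from 13 higher and 6 lower with TMM to 5 higher and 24 lower with the total count alone.

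**Figure D2:**
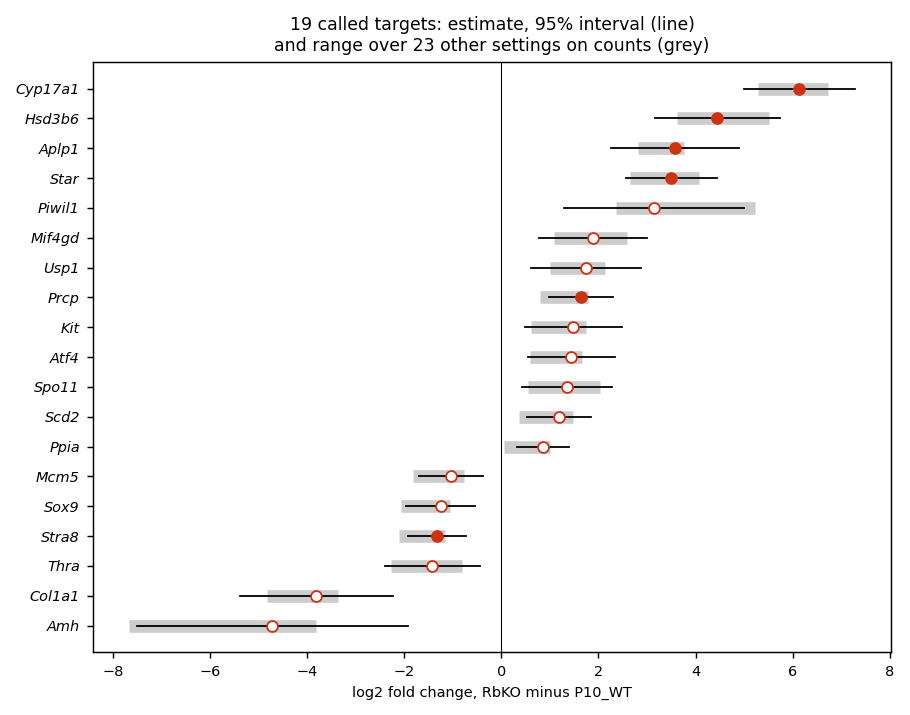
Log2 fold change of each of the 19 called targets, RbKO minus P10_WT (points), with the 95% interval (black line) and the range over the 23 other settings that used counts (grey band; the setting on the deposited score, on another scale, is left out). Filled points mark the 6 targets that kept their call in all 24 other settings, led by Cyp17a1 at 6.14, and open points the other 13.

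The targeted gene was compared first. Rb1 (chromosome 14, 73183673 to 73325822, minus strand, GRCm38) stood at 1050, 1338, 1645 and 1910 CPM in the RbKO libraries and at 1065, 611, 1688, 2600 and 860 in P10_WT. The groups overlapped, and the log2 fold change of 0.14 (SE 0.56, 95% interval -1.05 to 1.34, adjusted p 0.882) changed sign with the scaling, from -0.66 with the total alone to 0.26 with DESeq2. In 2.5mo_WT the levels were 6019, 2788, 6789, 5394 and 2981 CPM, all above the RbKO libraries (log2 fold change of RbKO minus 2.5mo_WT -1.69, adjusted p 0.0121), and P10_WT also lay below 2.5mo_WT (-1.82, adjusted p 0.00184). The labels do not say whether the amplicon lies in the floxed part of the gene. Whole testis also holds cells other than Sertoli cells, and Rb1 was not measured in each apart. The level therefore does not measure its loss in Sertoli cells.

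The RB and E2F family, Rb1 included, showed no called change: of 9 targets, 8 were tested and 0 were called. Over all 97 tested targets, 13.4% were called higher and 6.19% lower, so 0 of 8 says little. The family's median log2 fold change was -0.02, beside -0.13 over all tested targets. Rbl2, which encodes the RB relative p130 of resting cells, had 594, 1424, 612 and 1360 CPM in RbKO and 471, 550, 993, 737 and 294 in P10_WT (log2 fold change 0.70, SE 0.74, adjusted p 0.576). All 9 of these libraries were below the lowest 2.5mo_WT library, at 4681 CPM, and Rbl2 was lower in RbKO (-2.88, adjusted p 0.000232) and in P10_WT (-3.59, adjusted p 2.63e-06) than in 2.5mo_WT. Rbl1, its relative of dividing cells, averaged 1376 ± 295 CPM (SD, n = 4) in RbKO and 1314 ± 990 (n = 5) in P10_WT (0.04, SE 0.82). E2f3, an activating E2F, was read by amplicons 7231985 (2908 ± 1221 against 2737 ± 822 CPM; 0.07, SE 0.43) and 7231987 (153 ± 165 against 337 ± 324 CPM; -1.11, SE 1.75). E2f1, E2f4 and E2f5 had log2 fold changes of -0.58, -0.08 and -0.71, and E2f2 had too few counts to test. The signs of Rb1, Rbl1, Rbl2 and E2f3 amplicon 7231985 differed between scalings, so no direction is given for them.

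Steroid-making targets of Leydig cells, the androgen producers between the tubules, made up the 3 most significant calls, and all 3 of 3 on the panel were higher in RbKO, with a median log2 fold change of 4.45. Cyp17a1, the hydroxylase and lyase that leads into androgen synthesis (chromosome 19, 46667165 to 46673172, minus strand), had 331134, 583595, 428363 and 446790 CPM in RbKO and 5473, 1840, 3934, 15372 and 6069 in P10_WT. Every RbKO library was far above every P10_WT library, 70.4-fold by the fit (log2 6.14, SE 0.54, adjusted p 1.82e-06). The 2.5mo_WT libraries lay between the groups, at 45875 to 108710 CPM. RbKO was therefore above both the juvenile and the adult control level of Cyp17a1 (log2 2.50 against 2.5mo_WT, adjusted p 0.000523). Hsd3b6, a steroid dehydrogenase of adult Leydig cells (chromosome 3, 98805504 to 98814443, minus strand), had 19674, 37519, 15886 and 19320 CPM in RbKO and 159, 1901, 1407, 1105 and 583 in P10_WT. Again no library overlapped, and the difference was 21.9-fold (log2 4.45, SE 0.60, adjusted p 0.000106) and 1.53 on the log2 scale against 2.5mo_WT (adjusted p 0.0234). Whether its amplicon separates Hsd3b6 from its close relatives in the Hsd3b family is not stated in the sources used here. Star, which brings cholesterol into the mitochondrion (chromosome 8, 25806555 to 25815982, plus strand), had 18731, 26136, 22962 and 16580 CPM in RbKO and 1090, 1120, 1253, 4708 and 1414 in P10_WT. The highest P10_WT value belongs to replicate 4, which also had the highest Cyp17a1 of its group. Star was 11.3-fold higher in RbKO (log2 3.50, SE 0.44, adjusted p 7.01e-05) and did not pass against 2.5mo_WT (1.21, adjusted p 0.0578), although the libraries did not overlap there. All 3 were called in each of 24 other settings. Over the 23 of these that used counts, the log2 fold change ran from 5.28 to 6.73 for Cyp17a1, 3.61 to 5.52 for Hsd3b6 and 2.64 to 4.08 for Star. The remaining setting used the authors' deposited score, whose differences are on another scale.

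The Leydig cell targets did not move by one common factor. Within a library, where scaling plays no part, the log2 ratio of Cyp17a1 to Star counts was 4.14 to 4.75 in RbKO and 0.71 to 2.33 in P10_WT, a difference of 2.70 with no overlap (exact two-sided permutation test, p 0.00794, the smallest that the regroupings of 4 and 5 libraries allow; adjusted p 0.0476 over 12 ratios). Without any 1 library this call was lost (adjusted p 0.0686 to 0.214), where the smallest possible p is larger. The ratio of Hsd3b6 to Star was 0.07 ± 0.44 (SD, n = 4) in RbKO and -1.04 ± 1.48 (n = 5) in P10_WT and did not differ beyond its spread (exact permutation p 0.183, adjusted 0.243). Summed over the 3 targets, the Leydig cell level was 369540 to 647249 CPM in RbKO, 4862 to 21186 in P10_WT and 58400 to 131586 in 2.5mo_WT. In RbKO most of this sum was Cyp17a1, at 331134 to 583595 CPM, so it largely repeats the difference of that target.

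**Figure D3:**
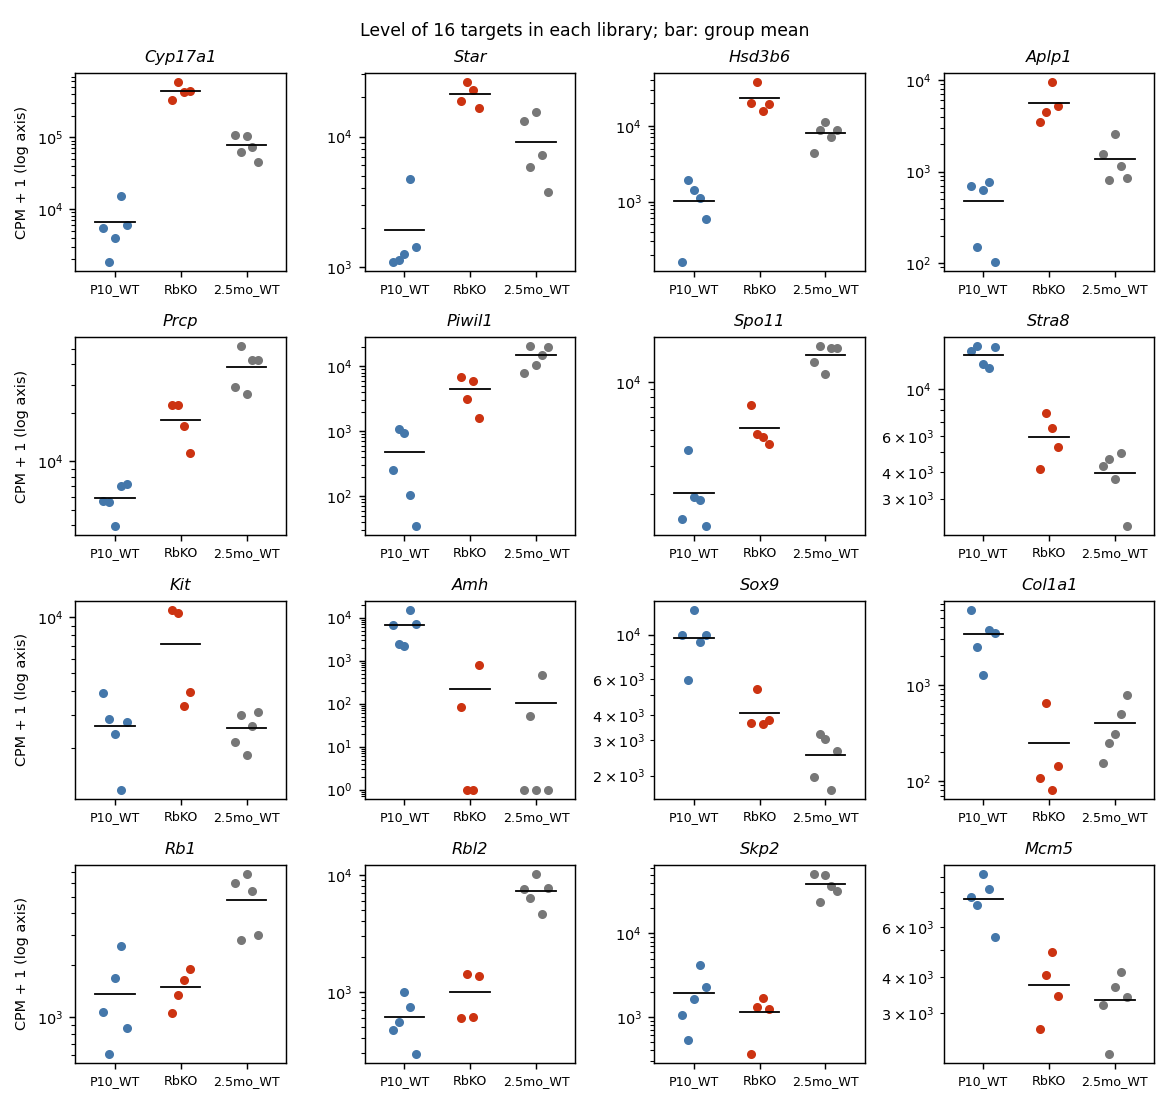
CPM plus 1 on a log axis for 16 targets; each point is a library (blue P10_WT, red RbKO, grey 2.5mo_WT) and each bar a group mean. Cyp17a1, Star and Hsd3b6 are highest in RbKO, Piwil1, Spo11 and Prcp have RbKO means between those of P10_WT and 2.5mo_WT, and Rb1, Rbl2 and Skp2 are highest in 2.5mo_WT.

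The germ cell lists held 3 meiotic targets, 3 of differentiating spermatogonia and 5 of undifferentiated spermatogonia. Of these, 3 were called higher in RbKO than in P10_WT (Piwil1, Spo11 and Kit) and 1 lower (Stra8). Over all 97 tested targets, 13.4% were called higher and 6.19% lower. Of 3 meiotic targets, 2 were higher in RbKO than in P10_WT and the other did not pass. Piwil1, the PIWI protein that binds piRNAs in spermatocytes and spermatids (chromosome 5, 128702524 to 128755474, plus strand), had 6923, 3143, 5926 and 1598 CPM in RbKO and 253, 1073, 924, 102 and 33.9 in P10_WT. The groups were apart, 8.82-fold by the fit (log2 3.14, SE 0.86, adjusted p 0.0229), and all 4 RbKO libraries lay below all 5 of 2.5mo_WT, at 7870 to 20443 CPM, without passing that test (-1.74, adjusted p 0.0697). Spo11, the enzyme that cuts DNA to start recombination (chromosome 2, 172977700 to 172993576, plus strand), had 7154, 4731, 4521 and 4079 CPM in RbKO and 1387, 3776, 1916, 1822 and 1267 in P10_WT. It was 2.55-fold higher in RbKO (log2 1.35, SE 0.43, adjusted p 0.0377) and lower than in 2.5mo_WT (-1.52, adjusted p 0.00321). Sycp1, a core protein of the synaptonemal complex (chromosome 3, 102818499 to 102936100, minus strand), had 16407, 23607, 26879 and 22796 CPM in RbKO against 19590, 31590, 29421, 26446 and 11595 in P10_WT. These overlapped (-0.11, SE 0.32, adjusted p 0.858), and both groups were below 2.5mo_WT (-0.95, adjusted p 0.0291, and -0.87, adjusted p 0.0245). The log2 ratio of Sycp1 to Spo11 within a library was 1.20 to 2.57 in RbKO and 3.06 to 3.94 in P10_WT, lower in RbKO by 1.43 with no overlap (exact permutation p 0.00794, adjusted 0.0476). This call was lost without any 1 library (adjusted p 0.0686 to 0.214), where fewer regroupings make the smallest possible p larger. Sycp1 has 1 named pseudogene in GENCODE M21, whose transcripts the amplicon may not separate. Summed, the meiotic level was 28473 to 37326 CPM in RbKO, 12896 to 36439 in P10_WT and 67129 to 82609 in 2.5mo_WT. Most of this sum was Sycp1 in RbKO and P10_WT, where it averaged 22422 and 23729 CPM. Against the adult control, to which the description as poor in germ cells applies, 2 of 3 meiotic targets were lower in RbKO, as was 1 of 5 targets of undifferentiated spermatogonia, and 2 of 3 of differentiating spermatogonia (Kit and Ccnd2) were higher. Over all 97 tested targets, 12.4% were called lower and 15.5% higher in that comparison, and with so few members 1 of 5 is near that share. The Piwil1 call was lost without RbKO replicate 1 (2.71, adjusted p 0.0801; 0.000161 to 0.093 over 24 settings). The Spo11 call was lost in 6 of the 9 fits that left out a library (RbKO replicates 1, 2 and 4, P10_WT replicates 1, 3 and 5; adjusted p up to 0.161, and 0.0015 to 0.323 over 24 settings).

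Stra8, which retinoic acid induces as germ cells enter meiosis (chromosome 6, 34920163 to 34939344, plus strand), was the only germ cell target called lower in RbKO, at 4161, 7711, 6560 and 5322 CPM against 15350, 16121, 13203, 12650 and 15888 in P10_WT. No library overlapped, and the level was 2.51-fold lower (log2 -1.33, SE 0.28, adjusted p 0.00401; -2.11 to -1.16 over the 23 settings on counts, and called in all 24). RbKO did not pass against 2.5mo_WT (0.58, adjusted p 0.119), whose libraries had 2221 to 4985 CPM. Kit, the receptor for stem cell factor on spermatogonia that differentiate and also on Leydig cells, went the other way, at 10934, 10574, 3349 and 3962 CPM in RbKO against 3898, 2859, 2373, 1187 and 2749 in P10_WT. RbKO replicates 1 and 2 were well above replicates 3 and 4, the latter 2 near or within the P10_WT range. The difference was called (log2 1.48, SE 0.47, adjusted p 0.0377), also against 2.5mo_WT (1.51, adjusted p 0.0121), and the first call was lost without RbKO replicate 1 (1.10) or 2 (1.32) and without P10_WT replicate 2, 3 or 5, with adjusted p up to 0.163 (0.00857 to 0.258 over 24 settings). The Leydig cell targets were also higher in RbKO than in P10_WT. In P10_WT minus 2.5mo_WT, Kit had a log2 fold change of 0.05, while Cyp17a1, Hsd3b6 and Star had -3.60, -2.96 and -2.26. The part of Leydig cells in the level of Kit was not tested. Ccnd2, the D cyclin of spermatogonia, was at 387 to 1292 CPM in RbKO and 1399 to 4872 in P10_WT, apart but not called (-1.44, SE 0.53, adjusted p 0.0697). It was called with the total alone (-2.25, adjusted p 0.00996) and with the reference genes (-1.96, adjusted p 0.0438; 0.00996 to 0.307 over 24 settings).

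Of 5 targets of undifferentiated spermatogonia, the stem and progenitor cells, 0 were called, and all 5 had negative log2 fold changes, with a median of -1.11. Pou5f1, a pluripotency factor kept by early germ cells, gave 1 count over all 4 RbKO libraries and 227 over the 5 of P10_WT, a scaled ratio of 184 with an exact counting interval of 32.7 to 7290. In P10_WT these counts came from 3 libraries, at 327, 536 and 435 CPM, and replicates 4 and 5 had 0, so the test was not passed (adjusted p 0.0729). It was passed in 6 of the 21 other settings that gave a value, among them the fit without P10_WT replicate 4, the shallowest library (adjusted p 0.0394; 0.0102 to 0.197 over the 21). All 5 libraries of 2.5mo_WT had counts, at 76.4 to 937 CPM (adjusted p 0.0166 for RbKO against 2.5mo_WT). Gfra1, the GDNF receptor of stem cells, averaged 330 ± 271 CPM (SD, n = 4) against 616 ± 447 (n = 5), Zbtb16 473 ± 199 against 823 ± 370, Lin28a 90.6 ± 116 against 583 ± 752 and Thy1 245 ± 290 against 568 ± 848. Summed, these targets reached 473 to 1696 CPM in RbKO, 1892 to 4061 in P10_WT and 1893 to 3051 in 2.5mo_WT. Markers of spermatids are not on the panel, so the share of late germ cells was not measured.

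The immature and adult Sertoli cell lists held 3 calls among 10 tested targets, each lower in RbKO, beside 6.19% called lower over all 97. Of 3 immature Sertoli cell targets, 2 were lower in RbKO. Amh, the hormone of immature Sertoli cells (chromosome 10, 80805243 to 80807648, plus strand), had 81.2, 0, 0 and 799 CPM in RbKO and 6761, 2438, 2171, 15065 and 6963 in P10_WT. Every RbKO library was below every P10_WT library (log2 -4.72, SE 1.30, adjusted p 0.0229), and RbKO overlapped 2.5mo_WT, where 3 of 5 libraries had 0 (1.15, adjusted p 0.563). The Amh call was lost without RbKO replicate 1 (-4.45, adjusted p 0.0755) and without P10_WT replicate 5 (-4.69, adjusted p 0.0517; 0.000973 to 0.093 over 24 settings). Thra, the thyroid hormone receptor through which Sertoli cells stop dividing, was at 2530, 4170, 2468 and 5962 CPM in RbKO and 10664, 5107, 5967, 22762 and 8999 in P10_WT, with overlap. It was called (-1.43, SE 0.46, adjusted p 0.0381), and 7 of the 9 fits that left out a library lost it (all but those without RbKO replicate 4 or P10_WT replicate 2; adjusted p up to 0.111, and 0.00348 to 0.152 over 24 settings). Fst, the activin-binding follistatin, was counted in all 4 RbKO libraries (394 to 968 CPM) and in 3 of 5 in P10_WT, at 198, 435 and 605 CPM (1.35, SE 1.37, adjusted p 0.576). It was near 0 in 2.5mo_WT (12.1 ± 21.9 CPM, SD, n = 5), and both RbKO (5.69, adjusted p 0.0167) and P10_WT (4.32, adjusted p 0.0386) were above that level.

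Of 7 adult Sertoli cell targets, Sox9 was called lower and the other 6 were not called. The list's name does not stand for a higher adult level here. In P10_WT, 5 of the 7 were called higher than in 2.5mo_WT and 0 lower, beside 21.6% called higher over all 97 tested targets. Sox9 was among them (1.94, adjusted p 2.75e-05). Sox9, the transcription factor that sets Sertoli cell fate (chromosome 11, 112782224 to 112787760, plus strand), had 3655, 5345, 3604 and 3772 CPM in RbKO and 9941, 5935, 13240, 9232 and 10000 in P10_WT. The groups were apart (-1.25, SE 0.33, adjusted p 0.0209), and the call was lost without P10_WT replicate 3 (-1.06, adjusted p 0.0578; 0.000369 to 0.093 over 24 settings). All 4 RbKO libraries were above all 5 of 2.5mo_WT, at 1700 to 3208 CPM, without passing (0.70, adjusted p 0.0833). Wt1 and Gata1, further transcription factors of Sertoli cells, had log2 fold changes of -0.46 and -0.07, Cldn11, a tight junction protein, -0.07, and Rhox5, an androgen-induced homeobox gene, -0.49. Inha, the inhibin alpha subunit, had 47646, 46054, 29645 and 29647 CPM in RbKO and 30512, 29994, 24919, 18648 and 32602 in P10_WT (0.50, SE 0.30, adjusted p 0.365), where the sign changed with the scaling (-0.33 with the total alone). It was higher in RbKO (1.12, adjusted p 0.00344) and in P10_WT (0.64, adjusted p 0.0444) than in 2.5mo_WT. Relative to Wt1 in the same library, Sox9 was at -0.79 ± 0.28 (SD, n = 4) in RbKO and 0.01 ± 0.51 (n = 5) in P10_WT on the log2 scale, a difference of -0.80 that did not pass (exact permutation p 0.0317, adjusted 0.0952). The list's summed level was 74922 to 130098 CPM in RbKO, 63373 to 127482 in P10_WT and 46502 to 76890 in 2.5mo_WT. Inha and Cldn11 weighed most in it, with means of 38248 and 37122 CPM in RbKO and 27335 and 39135 in P10_WT.

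Of 3 blood-testis barrier targets and 3 tested niche factors, 0 were called, beside 13.4% called higher and 6.19% lower over all 97 tested targets. Icam1, an adhesion molecule of the barrier and of other cells, had 10271, 10613, 2504 and 2397 CPM in RbKO and 1699, 1508, 2070, 40.9 and 1493 in P10_WT. The groups did not overlap, RbKO replicates 1 and 2 again standing above 3 and 4, and the test was narrowly missed (2.22, SE 0.75, adjusted p 0.0518). It was passed in 10 of 24 other settings, among them the fits without RbKO replicate 3 (2.51, adjusted p 0.0386), RbKO replicate 4 (2.48, adjusted p 0.0435) and P10_WT replicate 4 (1.91, adjusted p 0.0171; 0.00221 to 0.179 over 24 settings). Cldn3, a claudin of the forming barrier, was at 0 in 2 RbKO libraries and at 34.6 ± 65.2 CPM on average, against 173 ± 163 in P10_WT (-2.46, SE 2.21, adjusted p 0.548) and 1128 ± 381 in 2.5mo_WT (RbKO minus 2.5mo_WT -5.03, adjusted p 0.0221). Inhbb and Inhba, the activin beta subunits, had log2 fold changes of -1.48 (adjusted p 0.134) and -2.54 (adjusted p 0.384). Inhbb was called without RbKO replicate 3 (-2.31, adjusted p 0.0223; 0.0223 to 0.328 over 24 settings), which had 2257 CPM where the other 3 had 312 to 646. Gdnf had too few counts to test.

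Of 4 peritubular and stromal targets, Col1a1 was called lower in RbKO and the others were not called. Over all 97 tested targets, 6.19% were called lower, and with so few members 1 call says little about the list. Col1a1, a chain of fibrillar collagen made by stromal cells (chromosome 11, 94936224 to 94953042, plus strand), had 106, 654, 80.1 and 143 CPM in RbKO and 6023, 2492, 1274, 3746 and 3456 in P10_WT. No library overlapped, and the level was 14.1-fold lower (log2 -3.82, SE 0.74, adjusted p 0.00236), while RbKO overlapped 2.5mo_WT at 153 to 785 CPM (-0.70, adjusted p 0.455). Its call held in 23 of 24 other settings. Acta2, the smooth muscle actin of peritubular cells, was at 33263, 41005, 23027 and 16495 CPM in RbKO and 60866, 55134, 42704, 46486 and 57290 in P10_WT. These were apart but not called (-0.88, SE 0.31, adjusted p 0.0567). Acta2 passed in 9 of 24 other settings, among them the total alone (-1.73, adjusted p 0.000319) and the fit without P10_WT replicate 4 (-0.95, adjusted p 0.035; 0.000319 to 0.267 over 24 settings), and RbKO lay above 2.5mo_WT (0.94, adjusted p 0.0166). Myh11 and Cnn1, both of smooth muscle, had log2 fold changes of -1.14 (SE 0.58) and 0.63 (SE 1.17). The list's summed level was 20246 to 43821 CPM in RbKO, 48830 to 71887 in P10_WT and 14840 to 21526 in 2.5mo_WT. Most of this sum was Acta2, at 16495 to 41005 CPM in RbKO and 42704 to 60866 in P10_WT, so it largely repeats that uncalled target.

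**Figure D4:**
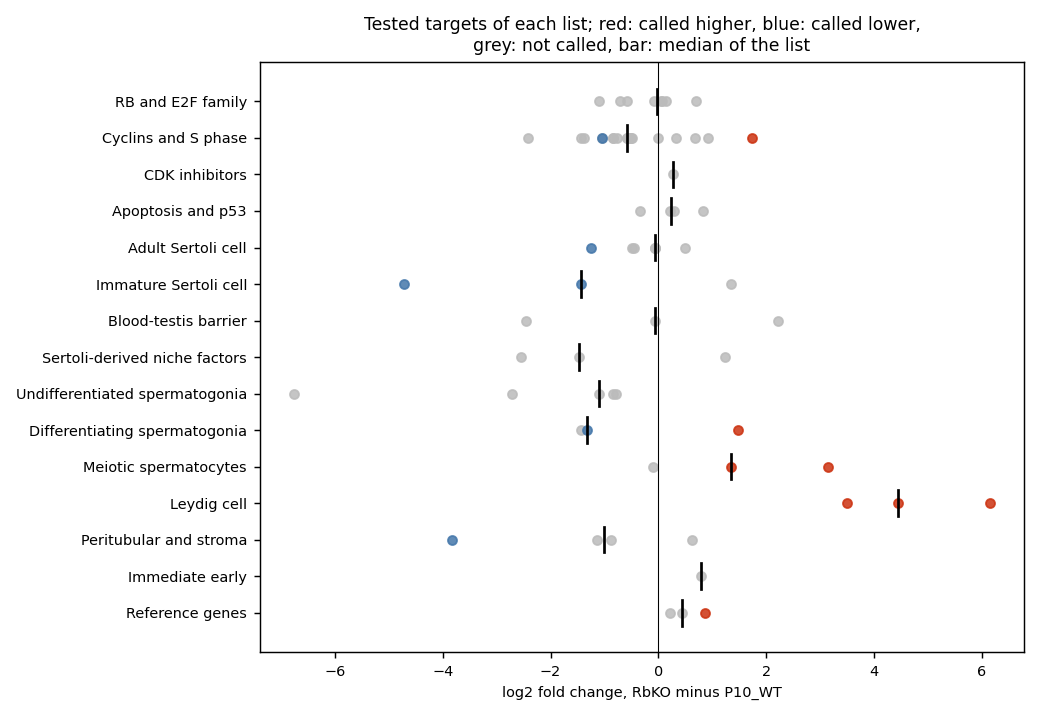
Log2 fold change, RbKO minus P10_WT, of every tested target by list (points: red called higher, blue called lower, grey not called; black bar: list median). The 3 Leydig cell targets lie from 3.50 to 6.14, and the 8 tested targets of the RB and E2F family lie from -1.11 to 0.70.

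Cell cycle targets, many of them known E2F targets, held 1 call in each direction among 19 tested, with a median log2 fold change of -0.58. Over all 97 tested targets, 13.4% were called higher and 6.19% lower, with a median of -0.13. Mcm5, a subunit of the helicase that opens DNA for replication (chromosome 8, 75109569 to 75128439, plus strand), was lower in RbKO, at 2630, 4085, 4929 and 3428 CPM against 7697, 7185, 9259, 8208 and 5571 in P10_WT. The groups were apart (-1.04, SE 0.31, adjusted p 0.0289), and RbKO did not pass against 2.5mo_WT, whose libraries had 2156 to 4168 CPM (0.18, adjusted p 0.651). The Mcm5 call was lost in 6 of the 9 fits that left out a library (RbKO replicates 1, 2 and 4, P10_WT replicates 1, 2 and 3; adjusted p up to 0.0801, and 0.00132 to 0.203 over 24 settings). The other helicase subunits, Mcm6 and Mcm2, had log2 fold changes of -0.84 (adjusted p 0.132) and -1.04 (adjusted p 0.203). Scaled by the total alone, Mcm6 (-1.68) and Mcm2 (-1.79) were called too. Usp1, a deubiquitinase of DNA repair, was the target called higher, at 2693, 1774, 6596 and 7544 CPM against 1129, 1127, 1035, 3050 and 854 in P10_WT. These overlapped through P10_WT replicate 4 (1.74, SE 0.53, adjusted p 0.0315), and the call was lost in 5 of the 9 fits that left out a library (RbKO replicates 3 and 4, P10_WT replicates 1, 3 and 5; adjusted p up to 0.141, and 0.0015 to 0.207 over 24 settings). Skp2, the F-box protein that marks p27 for destruction, had 362, 1307, 1667 and 1238 CPM in RbKO and 1050, 523, 1656, 4176 and 2302 in P10_WT (-0.77, SE 0.63, adjusted p 0.513). Both groups were far below 2.5mo_WT, at 24056 to 51641 CPM (-5.09, adjusted p 9.28e-06, and -4.34, adjusted p 2.71e-06). Ccnb1, a mitotic cyclin, and Pcna, the sliding clamp of replication, had log2 fold changes of -0.51 (adjusted p 0.426) and 0.32 (adjusted p 0.576) and were below 2.5mo_WT in RbKO (-1.85, adjusted p 0.000503, and -1, adjusted p 0.0166). Pcna and Ccnb1 have named pseudogenes (2 and 1 in GENCODE M21), whose transcripts the amplicons may not separate.

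Promoter windows are shown for 3 of these targets because E2F sites link the RB protein to them: Mcm5, which was called, Mcm6, which was not, and Rbl1 of the RB family. Each line is the 250 bases before a RefSeq transcript start (GRCm38.p6), 5′ to 3′ on the gene's strand, with capitals for a match to TTTCCCGC, TTTCGCGC, TTTGCCGC or TTTGGCGC on either strand.
Mcm5, chr8:75109259-75109508, plus strand: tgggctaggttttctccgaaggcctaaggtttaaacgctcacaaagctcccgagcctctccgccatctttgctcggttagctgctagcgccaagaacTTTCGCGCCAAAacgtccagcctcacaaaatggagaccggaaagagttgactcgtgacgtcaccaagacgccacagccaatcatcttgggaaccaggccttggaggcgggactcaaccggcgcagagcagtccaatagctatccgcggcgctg
Mcm6, chr1:128359706-128359955, minus strand: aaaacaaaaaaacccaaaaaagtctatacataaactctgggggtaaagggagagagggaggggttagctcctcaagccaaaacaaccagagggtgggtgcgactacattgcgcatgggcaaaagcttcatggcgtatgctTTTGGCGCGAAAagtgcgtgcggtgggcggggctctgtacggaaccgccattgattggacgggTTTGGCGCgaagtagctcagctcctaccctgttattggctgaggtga
Rbl1, chr2:157204535-157204784, minus strand: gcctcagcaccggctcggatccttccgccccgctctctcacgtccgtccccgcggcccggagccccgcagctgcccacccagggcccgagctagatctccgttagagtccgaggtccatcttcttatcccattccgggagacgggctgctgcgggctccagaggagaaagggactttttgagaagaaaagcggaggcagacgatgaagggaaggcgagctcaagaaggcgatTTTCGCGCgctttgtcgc
Mcm5 held 2 matches that overlap on opposite strands, Mcm6 3, of which 2 overlap in the same way, and Rbl1 1. Of 103 panel genes, 73 were found in the RefSeq table, with 84 windows, and 9 windows (10.7%) of 8 genes held a match, beside 1.86% of all 32851 windows. The 8 genes were Cdc6, Dnmt1, E2f3, Kit, Mcm5, Mcm6, Mrps12 and Rbl1, of which Kit was called higher and Mcm5 lower. Of the 73 genes found, with or without a match, 8 were called higher and 2 lower. The windows of Mcm2, Pcna, Ccnb1 and Skp2 held no match. A match describes these letters only and is not a site shown to be bound.

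Of 29 tested targets in no list, 5 were called higher and 0 lower, with a median log2 fold change of 0.05. Over all 97 tested targets, 13.4% were called higher and 6.19% lower, so these counts are near the overall shares. Aplp1, a membrane protein related to the amyloid precursor (chromosome 7, 30434982 to 30445535, minus strand), had 3480, 4497, 9479 and 5269 CPM in RbKO and 693, 149, 632, 778 and 102 in P10_WT. No library overlapped, and the level was 11.9-fold higher (log2 3.57, SE 0.62, adjusted p 0.00118; 2.82 to 3.77 over the 23 settings on counts, and called in all 24). RbKO also stood above 2.5mo_WT, at 810 to 2551 CPM (2.04, adjusted p 0.0138), as it did for Cyp17a1 and Hsd3b6. Prcp, a lysosomal carboxypeptidase (chromosome 7, 92874470 to 92934583, plus strand), had 22336, 22416, 16665 and 11221 CPM in RbKO and 5671, 5555, 3976, 7041 and 7189 in P10_WT. The groups were apart (1.64, SE 0.30, adjusted p 0.00184; 0.80 to 1.79 over the 23 settings on counts, and called in all 24), and RbKO was below 2.5mo_WT, at 26230 to 51994 CPM (-1.08, adjusted p 0.0121). Mif4gd, which takes part in the translation of histone mRNAs (chromosome 11, 115607918 to 115612969, minus strand), had 57705, 33862, 32266 and 29367 CPM in RbKO and 11254, 19876, 11350, 1945 and 7511 in P10_WT. It likewise stood between P10_WT (1.89, SE 0.52, adjusted p 0.0229) and 2.5mo_WT (-1.57, adjusted p 0.0166), and the first call was lost without RbKO replicate 1 (1.52, adjusted p 0.0801), P10_WT replicate 3 (1.95, adjusted p 0.0577) or P10_WT replicate 5 (1.78, adjusted p 0.0553; 0.000553 to 0.144 over 24 settings).

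Scd2, a desaturase of fatty acid synthesis, had 44909, 89416, 60834 and 74329 CPM in RbKO and 33420, 19937, 22212, 48676 and 24921 in P10_WT, overlapping through P10_WT replicate 4. The call (1.19, SE 0.31, adjusted p 0.0208) was lost without RbKO replicate 2 (1.08, adjusted p 0.0557) or P10_WT replicate 3 (1.13, adjusted p 0.0577; 0.000535 to 0.35 over 24 settings), and RbKO was above 2.5mo_WT (1.83, adjusted p 0.000503). Atf4, the transcription factor of the integrated stress response, had 26828, 27443, 11292 and 8353 CPM in RbKO and 3357 to 8648 in P10_WT. Here too RbKO replicates 1 and 2 stood above 3 and 4 (1.44, SE 0.42, adjusted p 0.0289), and the call was lost without either of them (1.10 and 1.27) and without P10_WT replicate 2, 3 or 5, with adjusted p up to 0.111 (0.00198 to 0.221 over 24 settings). Of 3 reference genes, Ppia, cyclophilin A, was called higher (62559 to 82670 CPM against 32296 to 51480; 0.86, SE 0.25, adjusted p 0.0289), Rpl19, a ribosomal protein, had 0.22 (SE 0.35) and Hprt, of purine salvage, 0.43 (SE 0.33). With the total alone Ppia stood at 0.06 (adjusted p 0.874), and Rpl19 and Hprt changed sign (-0.62 and -0.39). Ppia lost its call in 6 of the 9 fits that left out a library (RbKO replicates 1, 2 and 4, P10_WT replicates 1, 3 and 5), with adjusted p up to 0.0694. Rpl19 has 10 named pseudogenes. Of 4 tested targets of apoptosis and p53, 0 were called, beside 13.4% called higher and 6.19% lower over all 97 tested targets. Bax, which opens the mitochondrion in cell death, had a log2 fold change of 0.21 (adjusted p 0.682) and was above 2.5mo_WT in RbKO (1.71, adjusted p 0.000503) and in P10_WT (1.5, adjusted p 0.000434). Cdkn1b, the p27 inhibitor of cyclin-dependent kinases, averaged 3922 ± 1316 CPM (SD, n = 4) against 3241 ± 1050 (n = 5; 0.27, SE 0.40), and Jun, an immediate early factor, 1718 ± 991 against 953 ± 670 (0.78, SE 0.84).

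As a measure over all tested targets, the median absolute log2 difference of each RbKO library from the P10_WT mean was 0.97, 0.81, 0.97 and 1.08, a mean of 0.96 ± 0.11 (SD, n = 4). From the 2.5mo_WT mean it was 1.20, 1.10, 1.29 and 0.83, a mean of 1.10 ± 0.20. RbKO replicates 1, 2 and 3 were thus nearer to P10_WT and replicate 4 nearer to 2.5mo_WT, and the 2 means lie within the spread of the libraries. With the total count alone the order turned, at 1.27 ± 0.09 from P10_WT and 1.06 ± 0.20 from 2.5mo_WT, with 0 of 4 libraries nearer to P10_WT. For scale, 4 P10_WT libraries lay 0.43 to 0.83 from the mean of the other P10_WT libraries and replicate 4 lay at 1.39, while 2.5mo_WT libraries lay 0.32 to 0.56 from theirs. Of 97 tested targets, the RbKO mean lay between the means of P10_WT and 2.5mo_WT for 39, above both for 28 and below both for 30. Against 2.5mo_WT, 15 targets were called higher and 12 lower in RbKO, and 21 (21.6%) higher and 18 (18.6%) lower in P10_WT. These 2 comparisons share the 2.5mo_WT libraries, so no overlap between them is given.

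**Figure D5:**
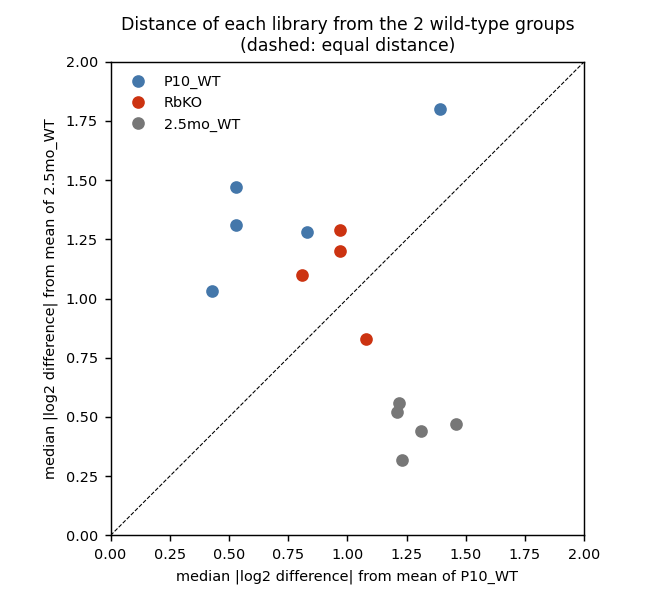
Each point is a library, placed by its median absolute log2 difference from the mean of P10_WT (x axis) and of 2.5mo_WT (y axis) over the tested targets, with its own library left out of its group's mean; the dashed line marks equal distance. The 4 RbKO libraries lie 0.81 to 1.08 from P10_WT and 0.83 to 1.29 from 2.5mo_WT, apart from the 2.5mo_WT libraries on both axes and overlapping the P10_WT libraries, at 0.43 to 1.39 and 1.03 to 1.80, on both.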

How the data were processed

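The data are targeted RNA sequencing of whole mouse testis. Per the labels' protocols, libraries were made from 50 ng of DNase-treated total RNA (RIN above 9.0) with the TruSeq Targeted RNA Expression kit. The authors deposited raw read counts per amplicon, which every test here used, except 1 alternative that used their deposited normalized score, a value per amplicon scaled by its own spread. Which aligner, counter and genome build the authors used is not stated in the labels. Of the columns in the table used, 0 were left without a sample. The last column of the 10-day group carries stray punctuation after its numbers, which was removed.

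The 9 libraries were fitted in R 4.3.3 by the two-sided quasi-likelihood F test of edgeR 4.0.16, scaled by TMM, for the 97 targets with a mean count of at least 10, over which p-values were adjusted (Benjamini-Hochberg). A second fit of 14 libraries gave the adult control. Adjusted p-values of targets are edgeR's where no other tool is given. Intervals are 95%. Within-library ratios used counts plus 0.5. Reads copied by PCR carry no molecular identifiers and are not independent, so counting intervals cover counting error only. Each library was taken as 1 animal, since the titles differ, and the p-values measure the spread between these libraries. Between replicates, chi-square per degree of freedom was 69.9 or more (counting alone gives 1), so none was counted as a duplicate. The fitting script was tested on simulated data.

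Alternatives were DESeq2 1.42.0, limma 3.58.1 on the score, other scalings, filters of 0 or 50 counts, 3 or 5 groups in the fit, counts thinned to 36679 per library, and libraries left out. Named are Rb1, both E2f3 amplicons, every called target, up to 4 uncalled members of each list with the smallest p, and the targets of the ratios. Tgfbi and other targets outside this rule were named after their values were seen. Some targets that the rule names are not reported here. The members and lists were chosen with earlier results of these data known. Gene positions are from GENCODE M21 (GRCm38) and promoter windows from RefSeq (GRCm38.p6).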

Additional observations from a re-analysis of the deposited data

Results flagged for a closer look

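By Dixon's criterion on CPM, 1 library stood apart from its group of 4 or 5 for 8 of 44 target and group pairs checked. Chance alone gives about 1 in 20 for normally distributed values, which 8 of 44 exceeds. CPM need not be normally distributed and the pairs share libraries, so whether this is more than chance was not tested. In RbKO these were replicate 1 for Mif4gd, high at 57705 CPM, and replicate 2 for Col1a1 (654 CPM) and Sox9 (5345 CPM), high in both. RbKO replicate 4 was high for Amh (799 CPM) and low for E2f3 amplicon 7231985 (1090 CPM). In P10_WT, replicate 4, the shallowest library, was high for Star (4708 CPM) and Usp1 (3050 CPM), and replicate 2 was high for Spo11 (3776 CPM). Each of these values lies toward the other group, except those of Mif4gd and of E2f3 amplicon 7231985.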

How the results depend on the processing

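Against the 13 higher and 6 lower calls of RbKO over P10_WT, scaling by the total alone gave 5 and 24, by the reference genes 7 and 13, by the total without Cyp17a1 (chosen after seeing the data) 8 and 10, and the adult Sertoli cell list 3 lower. Fitting 5 groups gave 10 lower, limma on the score 7 higher, and leaving out the 10-day animals of title code 24.8 (P10_WT replicates 1 and 5; its meaning is not stated) 5 higher and 1 lower. Leaving out 1 library gave 6 to 14 higher and 3 to 8 lower. Each of the 19 targets called in the fit of 9 libraries kept its sign in all 24 settings. For RbKO against 2.5mo_WT, leaving out 1 library gave 4 to 18 higher and 10 to 15 lower (4 higher without RbKO replicate 2, 5 without RbKO replicate 1). For P10_WT against 2.5mo_WT it gave 13 to 22 higher and 15 to 20 lower, and the total alone 33 higher. Of the 12 ratios, 2 were called, and 0 to 0 with a library left out, where fewer regroupings make the smallest possible p larger. The mean distance of RbKO from P10_WT moved from 0.96 to 1.27 with the total alone and ran from 0.93 to 1.05 without 1 library. No paired analysis was possible because the replicate numbers were given in accession order and pair no animals.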

Other observations

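A target outside the lists neared the threshold and was named after its values were seen. Tgfbi, an extracellular matrix protein induced by TGF-beta, had 6635, 6948, 4769 and 3349 CPM in RbKO against 3373, 3035, 2660, 1371 and 2766 in P10_WT (log2 1.03, SE 0.38, adjusted p 0.07). It was called higher with 14 libraries in the fit (1.04, adjusted p 0.0385), with all 5 groups in the fit and with the adult Sertoli cell list as the scale.

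RbKO replicates 1 and 2 both lay above replicates 3 and 4 for Kit, Icam1 and Atf4, and also for Cldn11 (57874 and 50271 against 23705 and 16638 CPM), Inha (47646 and 46054 against 29645 and 29647) and Rpl19 (334246 and 313891 against 193225 and 133089). For Usp1 (2693 and 1774 against 6596 and 7544) they lay below. These targets were picked for the pattern, which was not tested. Replicates 1 and 2 also carry the 2 lower animal numbers in the titles, and what those numbers stand for is not stated there.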
